A study of Homo sapiens with 36 samples.

Results

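The 5p arms of miR-221 and miR-222, hsa-miR-221-5p and hsa-miR-222-5p, were followed through 7 tables of small RNA sequencing in human cells with extra chromosomes. The 2 miRNAs were found by their names among 509 mature miRNA names, and both were listed in all 7 tables, which gave 14 values. The tables were made from 36 libraries in 12 groups of 3. HCT116 cells come from a near-diploid colorectal carcinoma, and RPE1 cells from retinal pigment epithelium made immortal with hTERT. An asterisk marks cells with stable expression of histone H2B tagged with GFP, and each name gives the gained chromosome, its copy number and, after c, the clone. The HCT116 lines were HCT116 5/4 (tetrasomy of chromosome 5), HCT116 18/3 c2 (trisomy of 18), HCT116* 3/3 c11 (trisomy of 3) and HCT116* 8/3 c7 (trisomy of 8). The RPE1 lines were RPE1 5/3 12/3 (trisomies of 5 and 12), RPE1* 21/3 (trisomy of 21) and RPE1* 7/3 (trisomy of 7). By the study's methods RPE1* 7/3 had also gained chromosomes 9 and 12 spontaneously, as RPE1 5/3 12/3 had gained its chromosome 12, and a line marked with c grew from 1 cell. The controls, without an added chromosome, were HCT116 for HCT116 5/4, RPE1 for RPE1 5/3 12/3, the RPE1* libraries numbered 1 to 3 for RPE1* 21/3 and those numbered 11 to 13 for RPE1* 7/3. The 3 other HCT116 tables used the same HCT116* libraries as their control, although HCT116 18/3 c2 carries no H2B-GFP by its label.

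A miRNA gene is transcribed into a hairpin, and each side of the stem can give a short mature miRNA, named 5p or 3p after its side. Bases 2 to 8 of the mature miRNA, the seed, pair with target mRNAs. The miR-221 and miR-222 hairpins are made from one primary transcript and are widely known for holding back CDKN1B (p27) and CDKN1C (p57), inhibitors that stop cyclin-dependent kinases and so arrest the cell cycle. The sites described for those inhibitors pair with the 3p arms. Which arm a read comes from therefore matters for what its level can say.

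The sequences below are shown because they separate the arms. The mature miRNAs are those of RefSeq (GRCh38.p14), 5′ to 3′, with the seed in capitals. The table held no entry named hsa-miR-221-5p, which is named only.

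hsa-miR-222-5p: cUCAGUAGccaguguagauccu

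hsa-miR-221-3p: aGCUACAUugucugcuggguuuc

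hsa-miR-222-3p: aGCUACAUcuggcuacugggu

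The 3p arms of both hairpins had one seed, GCUACAU, which no other of the 2370 mature miRNAs in the RefSeq table had. The seed of hsa-miR-222-5p was UCAGUAG and occurred in 1 of the 2370, so that by its seed it was in a group with neither 3p arm. The names hsa-miR-221-3p and hsa-miR-222-3p occurred in 0 of the 7 tables and were not analysed here. Of the 509 names over all tables, 333 ended in 5p and only 12 in 3p. The absence of hsa-miR-221-3p and hsa-miR-222-3p from the tables therefore does not show that these arms were absent from the cells. The levels below are levels of the 5p arms alone. The hairpins that hold these arms are printed with the mature arms of the RefSeq table in capitals, and both read the same on GRCh37, the genome to which the reads were mapped (hg19).

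MIR221: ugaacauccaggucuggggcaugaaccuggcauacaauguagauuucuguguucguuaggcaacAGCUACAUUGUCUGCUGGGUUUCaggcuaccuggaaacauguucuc

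MIR222: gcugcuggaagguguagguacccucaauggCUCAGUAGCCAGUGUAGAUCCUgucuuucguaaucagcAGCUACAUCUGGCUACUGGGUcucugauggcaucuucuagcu

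On GRCh37 MIR221 is at chrX:45605585-45605694 and MIR222 at chrX:45606421-45606530, both on the minus strand and 726 bases apart. Both lie within MIR222HG, a long noncoding RNA gene (chrX:45604638-45629677, minus strand). By GENCODE 44 each hairpin lies in an intron of the transcript MIR222HG-201, and 24 bases of MIR221 also overlap an exon of MIR222HG-203. Chromosome X is not among the chromosomes the labels give as gained in any of the 7 lines.

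The tables give, for each miRNA, the authors' mean of normalised read counts over 6 libraries, 3 of the line and 3 of its control. A mean therefore describes a line and its control together, and no value of a single library, no spread and no test of line against control is given here. Each table was normalised on its own, so levels are given as shares per 1e+06 of the summed mean of the table (ppm), a sum that ran from 5556870 in HCT116 5/4 to 11221232 in RPE1* 7/3. A read spans a whole mature miRNA, so no correction for length applies between miRNAs. The depth of single libraries is unknown from these tables. Several, though not all, markers fitted the labelled cell types. Of the markers of colorectal epithelium, hsa-miR-200a-5p, hsa-miR-200b-5p, hsa-miR-200c-5p and hsa-miR-141-5p were listed in all 4 HCT116 tables, and in the RPE1 tables only hsa-miR-200a-5p was listed, in 1, at 0.584 ppm against at least 1138 ppm in HCT116 tables. The other 3 markers, hsa-miR-215, hsa-miR-194-5p and hsa-miR-192-5p, were listed in all 7 tables and did not mark HCT116. By share only hsa-miR-192-5p was higher in every HCT116 table, as were 47.8% of the 205 miRNAs listed in all 7 tables. Its log2 difference between RPE1 and HCT116 tables, -0.95, was the median of those 205. After the median ratio scaling described below all 3 overlapped between the cell types. Of the pigment epithelium markers, hsa-miR-204-5p had 379.5 to 1450 ppm in the RPE1 tables and at most 4.50 ppm in the HCT116 tables, and hsa-miR-211-5p was listed in 2 RPE1 tables and 1 HCT116 table at no more than 1.98 ppm. A name missing from a table says only that it was not listed there, since the lowest mean listed differed between tables, from 1.10 to 11.9.

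Shares and ranks are within the listed miRNAs, few of which are named 3p, and not within all miRNAs of the cells. Within these lists hsa-miR-221-5p was an abundant miRNA in both cell types. Its share was 473 ppm in the table of HCT116* 8/3 c7, 469 ppm in HCT116* 3/3 c11, 410 ppm in HCT116 18/3 c2 and 670 ppm in HCT116 5/4. In the RPE1 tables it was 554 ppm in RPE1 5/3 12/3, 498 ppm in RPE1* 21/3 and 537 ppm in RPE1* 7/3. The HCT116 tables held both the highest and the lowest share, and the 3 RPE1 tables lay between them no more than 1.11-fold apart. From the highest share to the lowest the order was HCT116 5/4, then RPE1 5/3 12/3, then RPE1* 7/3 and RPE1* 21/3, followed by HCT116* 8/3 c7, HCT116* 3/3 c11 and HCT116 18/3 c2. Without a spread for single libraries, it cannot be said which neighbours in this order differ. The means behind these shares, as deposited, ran from 3259 normalised counts in HCT116 18/3 c2 to 6022 in RPE1* 7/3.

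hsa-miR-222-5p was found at a lower level in every table. It had 47.5 ppm in HCT116* 8/3 c7, 23.1 ppm in HCT116* 3/3 c11, 38.4 ppm in HCT116 18/3 c2 and 21.2 ppm in HCT116 5/4. The RPE1 tables gave 20.5 ppm in RPE1 5/3 12/3, 23.8 ppm in RPE1* 21/3 and 38.7 ppm in RPE1* 7/3. By share, the 7 values fell into 4 between 20.5 and 23.8 ppm and 3 between 38.4 and 47.5 ppm. Each of these sets held tables of both cell types. After the median ratio scaling described below, the sets mixed. RPE1 5/3 12/3 (239) and RPE1* 21/3 (283) of the lower set then lay beside HCT116 18/3 c2 (242) and HCT116* 8/3 c7 (271). As deposited, the means ran from 118 normalised counts in HCT116 5/4 to 434 in RPE1* 7/3.

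**Figure D1:**
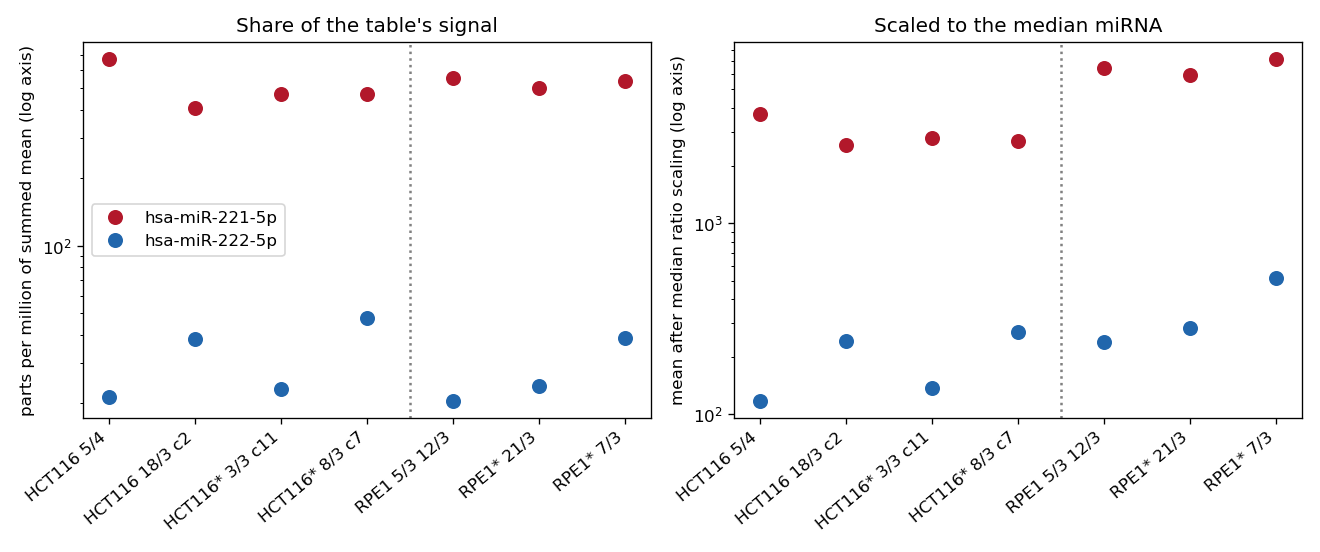
Levels of hsa-miR-221-5p (red) and hsa-miR-222-5p (blue) in the 7 tables, one point for each authors' mean over 6 libraries, with no error bars since single libraries are not given. On the left axis (ppm, log scale) the cell types overlap for both miRNAs, and on the right axis (means scaled to the median miRNA, log scale) the 3 RPE1 tables, right of the dotted line, lie above the 4 HCT116 tables for hsa-miR-221-5p, with 5928 to 7172 against 2577 to 3734.

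Ranks, which do not depend on how a table is scaled, placed the 2 arms far apart. Among the 205 miRNAs listed in all 7 tables, hsa-miR-221-5p ranked 42 to 50 in the HCT116 tables and 30 to 34 in the RPE1 tables. The ranks of hsa-miR-221-5p thus did not overlap between the cell types, as held for many miRNAs, since 17.6% of the 205 ranked higher in all RPE1 tables than in any HCT116 table and 23.4% lower. Those of hsa-miR-222-5p were 101 to 129 in the HCT116 tables and 86 to 112 in the RPE1 tables, and they overlapped. In the table of RPE1 5/3 12/3, hsa-miR-221-5p stood between hsa-miR-340-5p (578 ppm) and hsa-miR-26b-5p (549 ppm), and hsa-miR-222-5p between hsa-miR-589-5p (21.1 ppm) and hsa-miR-431-5p (20.1 ppm). In HCT116 5/4 the neighbours of hsa-miR-221-5p were hsa-miR-28-5p (676 ppm) and hsa-miR-378c (637 ppm), and those of hsa-miR-222-5p were hsa-miR-1252 (21.4 ppm) and hsa-miR-548av-5p (20.9 ppm).

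The share of hsa-miR-221-5p varied little over the tables. Its highest and lowest share were 1.64-fold apart, a log2 range of 0.71, while the median range of the 205 miRNAs was 2.52, and 202 of the other 204 had a larger range. For hsa-miR-222-5p the fold was 2.32, the log2 range 1.21, and 183 of 204 had a larger range. These ranks depended on the scale. With each table scaled by its median ratio to the geometric mean over the 205 miRNAs, the log2 range was 1.48 for hsa-miR-221-5p and 2.13 for hsa-miR-222-5p against a median of 2.08, and 149 and 95 of 204 had a larger range.

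The next comparison asked whether the cell types differed in the 2 arms. By share, the median over the 3 RPE1 tables was 1.14 times that over the 4 HCT116 tables for hsa-miR-221-5p, a log2 difference of 0.19. For hsa-miR-222-5p it was 0.798 times, a log2 difference of -0.32. Neither arm separated the cell types by share. Of the 205 miRNAs, 10.7% had all RPE1 tables above all HCT116 tables and 47.8% had them all below. The median log2 difference over the 205 miRNAs was -0.95, so that most shares were lower in the RPE1 tables. The 10 most abundant miRNAs held 93.7% to 94.6% of the summed mean in the RPE1 tables and 88.9% to 91.2% in the HCT116 tables, which left a smaller share for all others in RPE1. Relative to that median hsa-miR-221-5p was higher in RPE1 by 1.14 and hsa-miR-222-5p by 0.63 on the log2 scale, which placed them above 78.4% and 62.3% of the other miRNAs.

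After median ratio scaling, which brought the median difference to 0.04, the share of miRNAs with RPE1 tables all above was 21.0% and that with all below 25.9%. On this scale hsa-miR-221-5p was among those above. Its level was 6470 in RPE1 5/3 12/3, 5928 in RPE1* 21/3 and 7172 in RPE1* 7/3, against 2699 in HCT116* 8/3 c7, 2779 in HCT116* 3/3 c11, 2577 in HCT116 18/3 c2 and 3734 in HCT116 5/4. The log2 difference of medians was 1.24, a fold of 2.36. hsa-miR-222-5p had a log2 difference of 0.64, and its tables still overlapped, with 239 in RPE1 5/3 12/3 below 242 in HCT116 18/3 c2. With the means as deposited, where 14.6% of miRNAs were all above and 34.1% all below, both arms overlapped, at log2 differences of 0.44 and -0.39. The direction for hsa-miR-222-5p therefore changed with the scale, and that for hsa-miR-221-5p was the same on these 3 scales. By share, however, it turned to -0.03 with the 3 tables on the HCT116* controls averaged into 1. No test was made, since 3 of the 4 HCT116 tables share control libraries and a mean has no replicate error.

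**Figure D2:**
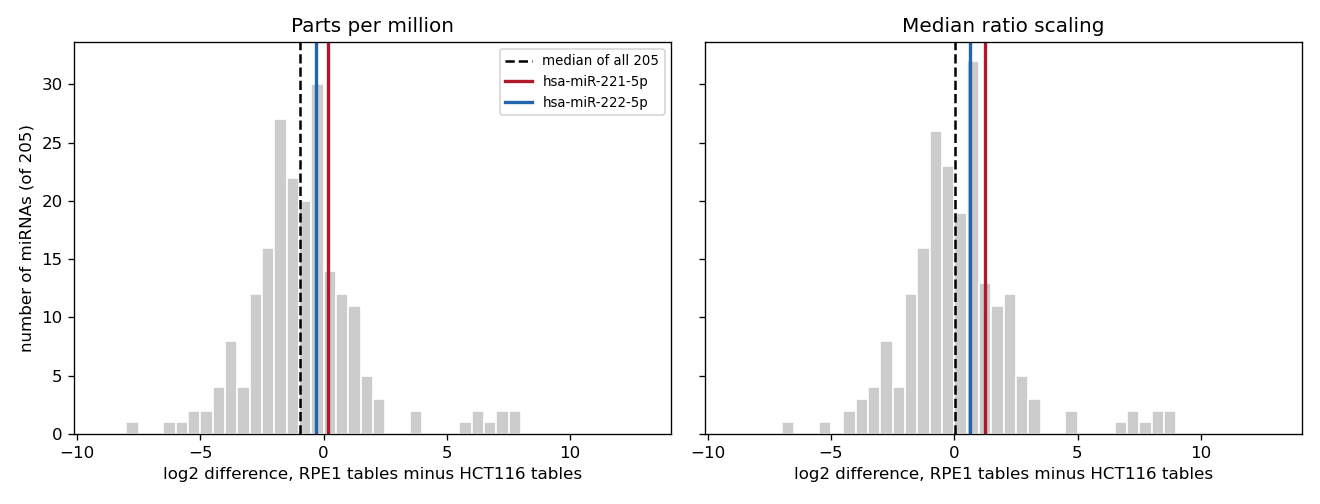
Difference between cell types (log2, median of the 3 RPE1 tables minus median of the 4 HCT116 tables, horizontal axis) for the 205 miRNAs listed in all tables, as the number of miRNAs per bin (vertical axis), by share in ppm on the left and after median ratio scaling on the right. The median of all miRNAs (dashed) moves from -0.95 to 0.04, and hsa-miR-221-5p (red, 0.19 and 1.24) and hsa-miR-222-5p (blue, -0.32 and 0.64) lie to its right in both panels.

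The ratio of hsa-miR-221-5p to hsa-miR-222-5p compares the 2 arms within a table and is the same on every scale. In the HCT116 tables it was 9.97 in HCT116* 8/3 c7, 10.7 in HCT116 18/3 c2, 20.3 in HCT116* 3/3 c11 and 31.7 in HCT116 5/4. The RPE1 tables gave 27.1 in RPE1 5/3 12/3, 20.9 in RPE1* 21/3 and 13.9 in RPE1* 7/3. Although both arms come from one primary transcript, the ratio differed 3.18-fold between tables, and the cell types overlapped. The 3 highest ratios were those of HCT116 5/4 (31.7), RPE1 5/3 12/3 (27.1) and RPE1* 21/3 (20.9), the tables for which the authors added the replicate number to their model because of sequencing batches. The 4 other tables had ratios of 9.97 to 20.3.

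In the same 3 tables GC-rich miRNAs had lower shares than in the other tables of the cell type. Over the 173 of 205 miRNAs (84.4%) with a mature sequence of that name in the RefSeq table, the share in a table relative to the mean of its cell type was related to GC content with a Pearson r of -0.40 in HCT116 5/4, -0.29 in RPE1 5/3 12/3 and -0.24 in RPE1* 21/3. It was 0.33 in RPE1* 7/3, 0.23 in HCT116* 8/3 c7, 0.29 in HCT116* 3/3 c11 and 0.28 in HCT116 18/3 c2. Tables of one cell type are set against their common mean, so these values are not independent, and miRNAs are not replicates. The GC content of hsa-miR-222-5p was 50%, against a median of 47.6% for the 173 miRNAs. That of hsa-miR-221-5p, the other term of the ratio, was not computed, since the RefSeq table held no mature sequence of that name. What part base composition and sequencing batches have in the ratio was not tested.

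**Figure D3:**
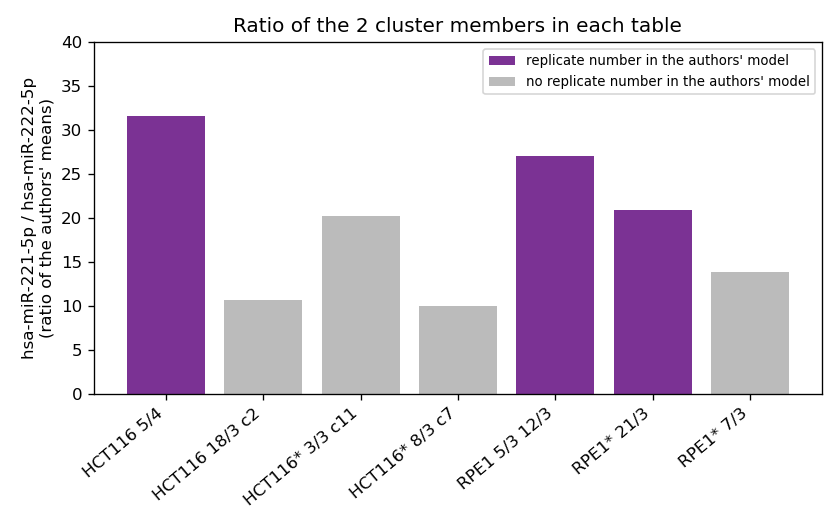
Ratio of the authors' means of hsa-miR-221-5p and hsa-miR-222-5p (vertical axis, from 0) in each of the 7 tables (horizontal axis). The 3 tables with the replicate number in the authors' model (purple) have ratios of 20.9 to 31.7 and the other 4 (grey) 9.97 to 20.3.

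The 3 tables on the HCT116* controls allow lines to be set side by side, since 3 of the 6 libraries behind each mean are the same. A ratio between 2 such means is nearer to 1 than that between the lines as long as the control libraries enter both at one level. hsa-miR-221-5p was at nearly one share in these tables. HCT116* 8/3 c7 and HCT116* 3/3 c11 were 1.01-fold apart, and both were higher than HCT116 18/3 c2, by log2 differences of 0.21 and 0.19. Relative to the median over all miRNAs of each pair these log2 differences were -0.02, 0.01 and 0.05.

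For hsa-miR-222-5p the table of HCT116* 3/3 c11 stood apart. The share in HCT116* 8/3 c7 was 2.05 times that in HCT116* 3/3 c11, a log2 difference of 1.04, and 7 of the other 278 miRNAs (2.52%) in both tables were at least as far apart. At least 0.6 apart on the log2 scale were 9.68% of the miRNAs in this pair. HCT116* 3/3 c11 was also below HCT116 18/3 c2, with a log2 difference of -0.73, where 11.1% of miRNAs were at least 0.6 apart. With the means as deposited that difference was -0.56, short of 0.6, and 21.9% of the other miRNAs were as far apart. Between HCT116* 8/3 c7 and HCT116 18/3 c2 the log2 difference of hsa-miR-222-5p was 0.30, short of 0.6, which 17.5% of miRNAs reached. Relative to the median of all miRNAs the differences were 1.01, -0.87 and 0.11, so that the 2 arms parted in HCT116* 3/3 c11. These are differences between means with no error, and no test was made.

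**Figure D4:**
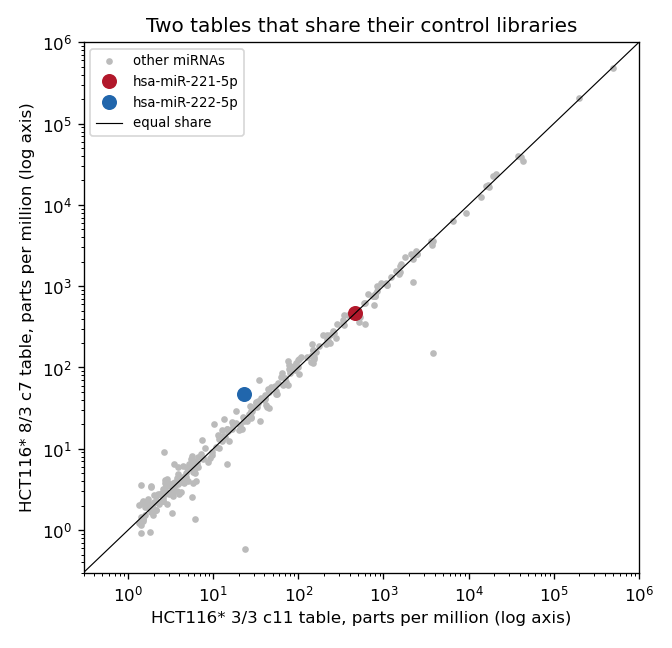
Share of each of 279 miRNAs in the tables of HCT116* 3/3 c11 (horizontal axis) and HCT116* 8/3 c7 (vertical axis), in ppm on log axes, with the line of equal shares. hsa-miR-221-5p (red) lies on the line at 469 and 473 ppm, and hsa-miR-222-5p (blue) lies above it at 23.1 and 47.5 ppm.

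Other miRNAs that act on the cell cycle put these levels in context. In the miR-17 family, whose members hold back the inhibitor p21 (CDKN1A), hsa-miR-20a-5p was above hsa-miR-221-5p in all 7 tables, hsa-miR-93-5p in 5, and hsa-miR-17-5p and hsa-miR-106b-5p in 1 each, while hsa-miR-20b-5p and hsa-miR-106a-5p were below both arms in all 7. By share, 0 of these 6 miRNAs were all above in the RPE1 tables and 3 were all below, against 10.7% and 47.8% of all 205 miRNAs. Their median log2 difference was -0.81. After median ratio scaling all 6 overlapped, with a median of 0.17. The corresponding median differences over the 205 miRNAs were -0.95 and 0.04.

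A second list held 9 miRNAs that restrain the cycle by acting on cyclins, cyclin-dependent kinases and other drivers of growth. Of these hsa-let-7a-5p, at 18546 to 30888 ppm, was above hsa-miR-221-5p in all 7 tables, and hsa-miR-16-5p in 2. In 0 tables did hsa-miR-34a-5p, a target of p53, reach hsa-miR-221-5p, but it was above hsa-miR-222-5p in all 7. By share 0 of the 9 were all above in RPE1 and 4 were all below (hsa-miR-195-5p, hsa-miR-34a-5p, hsa-miR-449a and hsa-miR-192-5p), against 10.7% and 47.8% of all miRNAs, a share near that of the list. After median ratio scaling hsa-let-7a-5p was all above, as was hsa-miR-221-5p, and hsa-miR-449a all below, where 21.0% and 25.9% of all miRNAs were.

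The miRNAs with the pattern most like that of each arm were different. Over the 7 tables the log2 share of hsa-miR-221-5p was most like those of hsa-miR-1248 (Pearson r 0.78), hsa-miR-671-5p (0.76), hsa-miR-140-5p (0.75), hsa-miR-16-5p (0.74) and hsa-miR-374c-5p (0.73), of the 204 miRNAs compared. That of hsa-miR-222-5p was most like those of hsa-miR-212-5p (0.82), hsa-miR-1228-5p (0.81), hsa-miR-574-5p (0.80), hsa-let-7b-5p (0.76) and hsa-miR-342-5p (0.75). Between the 2 arms r was -0.54 by share. These r values describe 7 tables, 3 of which share control libraries, and the share of each miRNA depends on the same total. No r was computed on another scale, so the negative sign between the arms is given for shares alone. After median ratio scaling the 2 arms did not run opposite to each other. Both then had their highest level in RPE1* 7/3, at 7172 and 517. Their lowest levels were in different tables, HCT116 18/3 c2 for hsa-miR-221-5p (2577) and HCT116 5/4 for hsa-miR-222-5p (118).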

How the data were processed

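Small RNA libraries were made by the submitters as 36 samples, and per the labels the tools included cutadapt and DESeq2 with the genome build hg19. By the study's methods the authors counted mature miRBase miRNAs with mirdeep2, a line together with its control, and normalised them with DESeq2. Each deposited table holds a signal, the mean over 6 libraries of counts that the authors divided by size factors, and 5 columns of the authors' comparison of line and control (fold change, its standard error, statistic and p-values). Those columns were not used, and their values are not given.

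The 2 members and all lists were chosen with earlier results of these data known. Named are the members, a cell cycle list, cell type markers, the 3p arms, neighbours in rank and the 5 miRNAs of highest Pearson r per member with an average mean of at least 10. Of all neighbours in rank, those in 2 tables are given. Shares, ranks and medians were computed with Python 3.11.15, numpy 2.4.6 and pandas 2.3.3, and figures with matplotlib 3.10.9. The functions were tested on simulated data. Of 509 names, 416 matched a mature RefSeq sequence (GRCh38.p14), and positions come from GENCODE 44 on GRCh37. Alternatives were 4 scalings, limits on the mean, and the HCT116* tables taken as 1.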

Additional observations from a re-analysis of the deposited data

How the results depend on the processing

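The scale moved the difference between cell types most. For hsa-miR-221-5p the log2 difference of RPE1 and HCT116 tables, 0.19 by share, was 0.44 with means as deposited, 1.24 with median ratio scaling and 0.87 without the 10 most abundant miRNAs. For hsa-miR-222-5p it went from -0.32 to 0.64 with median ratio scaling and to 0.23 without the 10 most abundant miRNAs. With the 3 tables on the HCT116* controls averaged into 1 the log2 differences were -0.03 and -0.19, and that of the ratio of the arms went from 0.51 to 0.05. The changes on averaging were smaller than the spread of tables within a cell type (SD of log2 share 0.24 and 0.53, and 0.69 for the ratio), although that for hsa-miR-221-5p changed the sign. The other alternatives also moved values by less than this spread, among them all differences between tables on the HCT116* controls. The share of the miRNAs whose cell types do not overlap was 46.8% to 62.4% over all settings. No paired analysis was possible because the values are means over a line and its control, and for the same reason no library could be left out and no count model was run.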
